A study of Mus musculus with 6 samples.

Results

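The Notch pathway was followed through 39 of the 20018 genes that could be named on the arrays: 5 ligands, 4 receptors, 3 Fringe glycosyltransferases, 6 proteases of receptor cleavage, 6 nuclear partners, 6 modulators and 9 target genes. They are the genes of a fixed list of pathway symbols, and every one of the 39 had at least 1 probe whose RefSeq accession carried its symbol, 51 probes in all. RNA came from endothelial cells sorted by fluorescence from mouse skin, in 3 APJ KO samples and 3 WT samples, all of strain C57Bl/6J, with no treatment after the sort. APJ is the receptor for the peptide apelin, encoded by Aplnr. The labels name each sample after a numbered mouse, state no age and no allele for the knockout, and do not say whether the animals were pooled, so the p-values measure the spread between these 6 samples. Xist, transcribed from the inactive X chromosome of females, and Ddx3y and Eif2s3y, genes of the Y chromosome, all stood well above background on all 6 arrays. The names of the scanner files, and none of the labels, carry an embryonic stage.

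Notch receptors are cut when a ligand of the Delta or Jagged family on a neighbouring cell pulls on them. The freed intracellular domain enters the nucleus, joins the DNA-binding protein RBPJ and a Mastermind co-activator, and switches on repressors of the Hes and Hey families. In growing vessels Dll4 on the leading tip cell restrains sprouting of its neighbours through this pathway, and Notch activity is needed for arterial identity.

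Signals are log2 of the processed intensity minus the 75th percentile of the same array, so a value of 0 means the intensity at that percentile. Differences are APJ KO minus WT. The 75th percentile of intensity ran from 260.5 to 399.7 over the APJ KO arrays and from 251.8 to 377.6 over the WT arrays, and the share of the 55681 probes that stood well above background was 50.3% to 58.0%. All 12 endothelial markers, among them Cdh5, Pecam1 and Tek, were well above background on every array. Aplnr read 1.89, 1.71 and 2.26 on the APJ KO arrays and 3.35, 3.77 and 3.82 on the WT arrays, so that the knockout arrays held 30.9% of the WT signal (limma adjusted p = 0.0236). Aplnr was still well above background on all 3 APJ KO arrays, its adjusted p was 0.0787 blocked by replicate number, and it passed in 1 of 6 fits with 1 array left out (0.0368 to 0.148). The arrays came from 2 slides, scanned at 2 times, with replicates 1 and 2 of both genotypes on slide 1 and replicate 3 of both on slide 2.

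Of the 39 members, 37 were well above background on every array of at least 1 genotype and were tested. Limma called Hes5, a transcriptional repressor that Notch induces, lower in APJ KO at an adjusted p under 0.05, and called 0 of the 37 higher. All 37 were well above background on all 6 arrays. The share called lower over everything tested was 0.186% of 24245 genes and unnamed probes, the share called higher 0.367% and the share called in either direction 0.553%. The median difference over the 37 members was 0.00028 on the log2 scale, against -0.02 over everything tested, with 19 members above 0 and 18 below. At an unadjusted p under 0.05 limma gave 4 members, Hes5, Dtx4, Notch3 and Ncstn, or 10.8% of the 37. All 4 were lower in APJ KO. Over everything tested the share was 8.02% in either direction, with 866 of 24245 lower and 1078 higher. For 33 of the 37 members the 95% interval of the difference lay inside a 2-fold change in either direction, and for 23 it lay within 0.5 on the log2 scale. The 4 members whose intervals reached past a 2-fold change were Hes5, Dtx4, Notch3 and Hes1.

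Hes5 (probe accession NM_010419, chromosome 4) read -0.43, -1.01 and -0.60 on the APJ KO arrays and 0.57, 0.62 and 0.47 on the WT arrays. Every APJ KO array lay below every WT array, and the WT arrays were close together. The means were -0.68 ± 0.30 in APJ KO and 0.55 ± 0.07 in WT (SD, n = 3 each). The difference of -1.23 ± 0.16 (SE, limma adjusted p = 0.0366) left 42.5% of the WT signal, with a 95% interval from -1.62 to -0.85 on the log2 scale. An exact two-sided permutation test gave p = 0.1, the smallest that 3 arrays against 3 allow. The difference was -1.31 within slide 1 and -1.07 within slide 2.

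The Hes5 call was narrow. Its adjusted p was 0.0457 in a fit blocked by slide and 0.101 in one blocked by replicate number, which called 0.0206% of everything tested in either direction, 0.0165% higher and 0.00412% lower. With any 1 array left out the adjusted p lay between 0.0704 without APJ KO replicate 2 and 0.202 without WT replicate 2, while the difference itself ran from -1.36 to -1.07 over those 6 fits. With 1 array fewer, 12 to 61 genes passed over everything tested, against 134 with all 6.

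The promoter of Hes5 is shown because RBPJ is known to bind DNA at the letters GTGGGAA, and the gene carries those letters on both strands close to its start. The 250 bases before each start site are printed for Hes5 and, for comparison, for the target genes Hes7 and Nrarp, whose signals did not pass the test. They were read on the plus strand from RefSeq's GRCm38.p6 table, at chr4:154960673-154960922 for Hes5, chr11:69120203-69120452 for Hes7 and chr2:25180508-25180757 for Nrarp. Capitals mark GTGGGAA, or TTCCCAC where it reads on the opposite strand.
Hes5: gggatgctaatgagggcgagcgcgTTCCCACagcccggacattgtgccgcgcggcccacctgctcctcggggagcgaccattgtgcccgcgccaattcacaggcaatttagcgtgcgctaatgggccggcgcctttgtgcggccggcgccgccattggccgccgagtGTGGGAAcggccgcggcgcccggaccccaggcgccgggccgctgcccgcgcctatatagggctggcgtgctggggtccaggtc
Hes7: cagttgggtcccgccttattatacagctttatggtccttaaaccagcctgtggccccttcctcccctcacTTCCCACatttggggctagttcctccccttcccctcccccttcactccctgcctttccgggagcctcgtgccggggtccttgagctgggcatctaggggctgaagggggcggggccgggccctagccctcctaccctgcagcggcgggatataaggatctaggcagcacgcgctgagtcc
Nrarp: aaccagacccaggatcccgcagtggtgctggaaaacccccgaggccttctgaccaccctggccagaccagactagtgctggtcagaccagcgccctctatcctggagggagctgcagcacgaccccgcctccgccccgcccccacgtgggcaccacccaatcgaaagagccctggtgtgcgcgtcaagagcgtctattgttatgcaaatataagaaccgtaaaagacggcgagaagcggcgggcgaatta

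In Hes5 the match on the printed strand began 83 bases before the start and the match on the opposite strand 226 bases before it. Hes7 held 1 match, on the opposite strand, and Nrarp held 0 in this window. The table had promoters for 31 of the 39 members, 39 windows in all (not Mfng, Snw1, Dtx3, Dtx4, Hes1, Hes2, Hey1 and Heyl), and 6 members had a window with a match: Hes5, Hes7, Hey2, Lfng, Spen and Psen2. Over all 32851 windows of the same length 5.42% held a match on either strand, and 18 windows, or 0.0548%, held one on each strand, as Hes5 did. A match describes the letters and shows neither binding nor a cause of the signal.

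**Figure D1:**
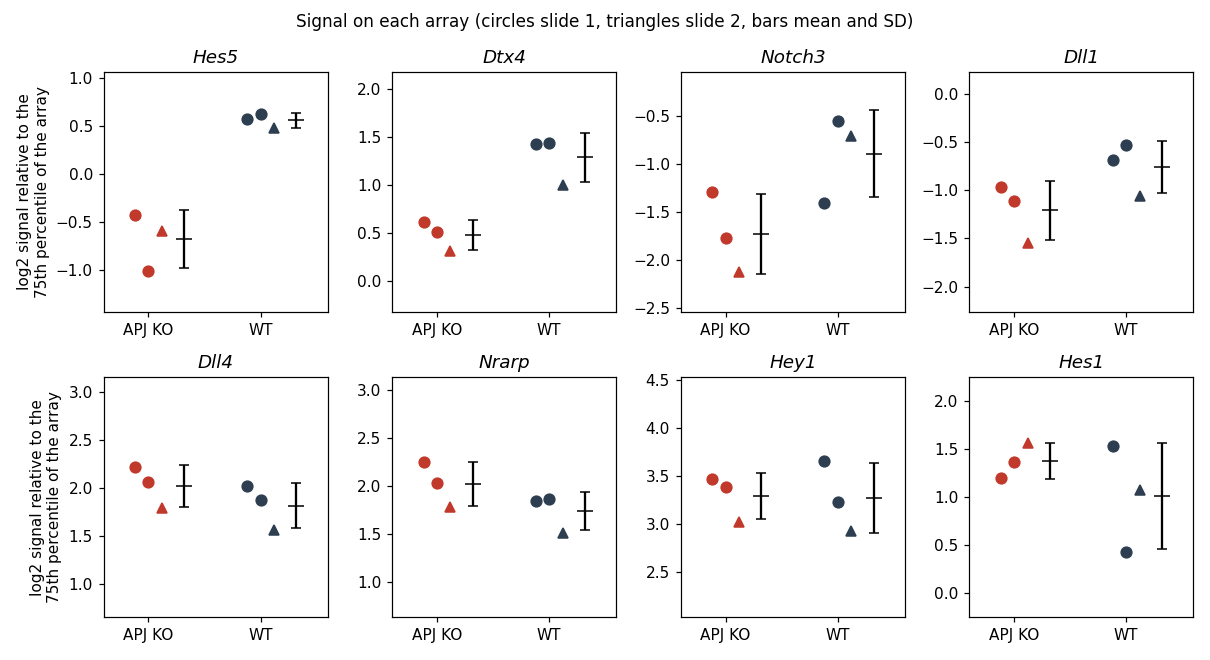
Log2 signal relative to the 75th percentile of the array (y axis, a span of equal length in every panel) for 8 Notch pathway genes, with the 3 APJ KO arrays left of the 3 WT arrays; circles are slide 1, triangles slide 2, and bars the mean and SD of 3 arrays. The APJ KO and WT arrays of Hes5 and Dtx4 do not overlap, and those of the other 6 genes do.

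None of the other 6 tested targets passed. Nrarp, a target that also feeds back to restrain Notch, read 2.25, 2.03 and 1.79 in APJ KO and 1.85, 1.86 and 1.52 in WT, a difference of 0.28 ± 0.16 (SE, n = 3 per group, limma adjusted p = 0.863). Hey1, a repressor that Notch induces in arterial endothelium, read 3.46, 3.38 and 3.01 in APJ KO and 3.65, 3.23 and 2.92 in WT. Its groups overlapped throughout, and its difference was 0.02, with a 95% interval from -0.49 to 0.53. Hes1, the broadly expressed family member, read 1.20, 1.36 and 1.56 in APJ KO and 1.53, 0.43 and 1.08 in WT, so that WT replicate 2 alone lay below 1; its difference of 0.36 ± 0.27 was the least precise of the tested targets. Hes2, a less studied family member, read -3.38, -3.57 and -3.30 in APJ KO and -3.67, -3.76 and -3.46 in WT. It was higher in 3 of 3 same-numbered pairs, at 0.21 ± 0.12 (limma adjusted p = 0.86). Hes6, which counteracts Hes1, differed by 0.09 ± 0.12, and Hes7, the oscillating repressor of somite segmentation, by -0.0020 ± 0.095.

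For 2 further targets no comparison could be made. Hey2, the partner of Hey1 in arterial cells, was not well above background on any of the 6 arrays. Heyl, a Hey gene known from mural cells, was well above background on 2 of 3 arrays of each genotype and read -2.92, -5.09 and -4.58 in APJ KO and -4.95, -2.67 and -3.58 in WT. The spread of Heyl within each genotype, with an SD of 1.13 in APJ KO and 1.15 in WT, exceeded the distance between the means. Over the 7 tested targets the median difference was 0.09, with 5 above 0 and 2 below.

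Dtx4, one of the Deltex ubiquitin ligases that modulate the Notch receptor's fate, was the member nearest to the threshold. It read 0.61, 0.51 and 0.31 on the APJ KO arrays and 1.42, 1.44 and 0.99 on the WT arrays, without overlap. Within each genotype the array on slide 2 was the lowest. The means were 0.48 ± 0.15 in APJ KO and 1.29 ± 0.25 in WT (SD, n = 3 each), and the difference of -0.81 ± 0.15 (SE, 57.1% of the WT signal) did not pass (limma adjusted p = 0.114). A fit blocked by slide called it, with an adjusted p of 0.0206; in that fit 0.417% of everything tested was called lower and 1.18% in either direction. A fit blocked by replicate number did not call it (0.0859). The difference was -0.87 within slide 1 and -0.68 within slide 2, and an exact permutation test gave p = 0.1.

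The other modulators did not pass. Dtx1, a Deltex family member that Notch itself can induce, read 0.50, 0.61 and 0.10 in APJ KO and -0.30, 0.36 and -0.13 in WT. Its difference of 0.42 ± 0.21 pointed the other way from that of Dtx4 (limma adjusted p = 0.775), and its groups overlapped. Dtx2 read 3.25, 3.56 and 3.72 in APJ KO and 3.42, 3.49 and 3.71 in WT and differed by -0.03 ± 0.15, and Dtx3 by 0.17 ± 0.13, with 0.02 within slide 1 and 0.47 within slide 2. Numb and Numbl, adaptors that antagonise the receptor, differed by 0.02 ± 0.09 and -0.01 ± 0.09.

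Among the receptors, Notch4 and Notch1, the endothelial pair, had nearly equal means in both genotypes. Notch4 read 4.70, 4.73 and 4.63 in APJ KO and 4.63, 4.69 and 4.54 in WT, and the 95% interval of its difference ran from -0.14 to 0.27. The difference of Notch1 was 0.03 ± 0.14 for the probe used and 0.11 for its other probe, and that of Notch2 was 0.10 ± 0.15, with -0.11 within slide 2. Notch3, the receptor of mural cells, read -1.29, -1.77 and -2.12 in APJ KO and -1.41, -0.55 and -0.71 in WT. WT replicate 1 lay inside the APJ KO range, and the difference of -0.84 ± 0.29 did not pass (limma adjusted p = 0.47). It was -0.55 within slide 1 and -1.41 within slide 2, where 1 array stands for each genotype.

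Markers of mural cells, which stand beside Notch3 because the gene is one of them, lay on both sides of 0. Of 9 listed mural markers other than Notch3, 5 were tested, and their median difference was 0.12. Abcc9, a potassium channel subunit of pericytes, read 0.09, -0.25 and 0.04 in APJ KO and -0.45, -0.42 and -0.52 in WT, higher without overlap at 0.42 ± 0.11 (limma adjusted p = 0.288). The contractile gene Tagln differed by 0.12 ± 0.13 and the proteoglycan gene Cspg4 by 0.20 ± 0.22. Pdgfrb, the receptor that defines pericytes, read -2.34, -3.74 and -2.12 in APJ KO and -2.95, -1.90 and -1.62 in WT, and it differed by -0.58 ± 0.51, and the actin gene Acta2 by -0.15 ± 0.40. Rgs5 read -3.39, -5.65 and -5.61 in APJ KO and -4.67, -3.14 and -4.37 in WT. Kcnj8 read -3.96, -4.84 and -4.28 in APJ KO and -5.05, -3.79 and -4.75 in WT. Neither was well above background on every array of a genotype, so neither was tested. Myh11 and Des, which mark contractile mural cells, were not well above background on any array. The lowest WT array was replicate 1 for Notch3, Pdgfrb, Acta2, Cspg4, Tagln, Rgs5 and Kcnj8, and replicate 3 for Abcc9. The margin was slight for Tagln (0.749 against 0.756 on replicate 2) and Cspg4 (-3.05 against -3.02 on replicate 3). WT replicate 1 was also the lowest for genes of other lists, among them Krt5, Krt10, Perp and Col1a2, but not for Lor and Lum. The lowest APJ KO array was replicate 3 for Notch3 and Acta2, and replicate 1 for Tagln. It was replicate 2 for Pdgfrb, Cspg4, Rgs5, Kcnj8 and Abcc9. The summed signal of the 5 tested mural markers, in multiples of the 75th percentile, ran from 3.24 to 3.90 in APJ KO and from 2.93 to 3.53 in WT. Tagln and Abcc9 had the highest signals in this sum. The part of mural cells in the Notch3 values was not tested, and in these bulk samples fewer cells of a type and less RNA per cell cannot be told apart.

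Of the 5 ligands 0 passed, with 4 below 0 and a lowest limma adjusted p of 0.682. Dll4, the main endothelial ligand of sprouting vessels, read 2.22, 2.06 and 1.79 in APJ KO and 2.01, 1.87 and 1.56 in WT. The groups overlapped because the slide 2 array was the lowest of each genotype, yet every APJ KO array exceeded the WT array of its own number, by 0.20, 0.19 and 0.22. Within slide 1 these numbers set no firm pairing, since crossed pairs deviated together more than same-numbered ones. By slide the Dll4 difference was 0.20 on slide 1 and 0.22 on slide 2. The fitted difference was 0.21 ± 0.16, and its adjusted p was 1.00 without a block, 0.368 blocked by slide and 0.238 blocked by replicate number.

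Dll1, a Delta ligand with arterial roles, read -0.96, -1.11 and -1.55 in APJ KO and -0.68, -0.53 and -1.06 in WT. It was lower in all 3 same-numbered pairs, with a difference of -0.45 ± 0.20 and an adjusted p of 0.682, or 0.0832 blocked by slide. Jag2 read 2.02, 2.03 and 1.69 in APJ KO and 2.22, 2.28 and 2.00 in WT (-0.25 ± 0.13). Jag1, a ligand that competes with Dll4 in endothelium, read 0.62, 0.55 and 0.40 in APJ KO and 0.76, 0.77 and 0.53 in WT (-0.16 ± 0.11). Both Jagged ligands were lower in 3 of 3 pairs, and neither passed under a block. Dll3, which does not activate receptors on other cells, differed by -0.01 ± 0.09.

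The 3 Fringe enzymes, which add sugars to the receptor and thereby alter its response to ligands, all had differences below 0 and did not pass. Mfng read 5.89, 6.06 and 6.12 in APJ KO and 6.13, 6.16 and 6.15 in WT, without overlap, and its difference was -0.12 ± 0.09. Lfng differed by -0.26 ± 0.16, with APJ KO arrays at -0.23, -0.38 and -0.30 and WT arrays at -0.38, 0.12 and 0.14. Rfng differed by -0.10 ± 0.19.

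The 6 proteases of receptor cleavage had differences from -0.23 to 0.19, and 0 passed. Ncstn, the nicastrin subunit of γ-secretase, read -3.11, -3.13 and -3.21 in APJ KO and -2.83, -2.94 and -2.98 in WT. These groups did not overlap, and the difference of -0.23 ± 0.09 left 85.0% of the WT signal (limma adjusted p = 0.521). Psenen, its smallest subunit, read 4.61, 4.74 and 4.78 in APJ KO and 4.59, 4.80 and 4.74 in WT, with a difference of 0.00028 ± 0.099. The γ-secretase genes Psen2, for a catalytic subunit, and Aph1a, for a scaffold subunit, differed by 0.19 ± 0.24 and 0.06 ± 0.11. Adam10, the sheddase that makes the first ligand-induced cut, differed by 0.09 ± 0.13 and its relative Adam17 by 0.08 ± 0.08.

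All 6 nuclear partners had 95% intervals within 0.5 on the log2 scale. Rbpj, the DNA-binding partner of the cleaved receptor, read 0.98, 0.85 and 0.81 in APJ KO and 1.01, 1.06 and 0.77 in WT, and its interval ran from -0.33 to 0.20. The Mastermind co-activators Maml1, Maml2 and Maml3 differed by 0.01 ± 0.12, -0.0016 ± 0.14 and 0.08 ± 0.08. Snw1, which binds the RBPJ complex, read 2.63, 2.76 and 2.88 in APJ KO and 2.74, 2.81 and 2.86 in WT and differed by -0.05 ± 0.10. Spen, a co-repressor at RBPJ, read 2.33, 2.34 and 2.40 in APJ KO and 2.44, 2.57 and 2.44 in WT, without overlap, at -0.12 ± 0.08 (limma adjusted p = 0.968).

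**Figure D2:**
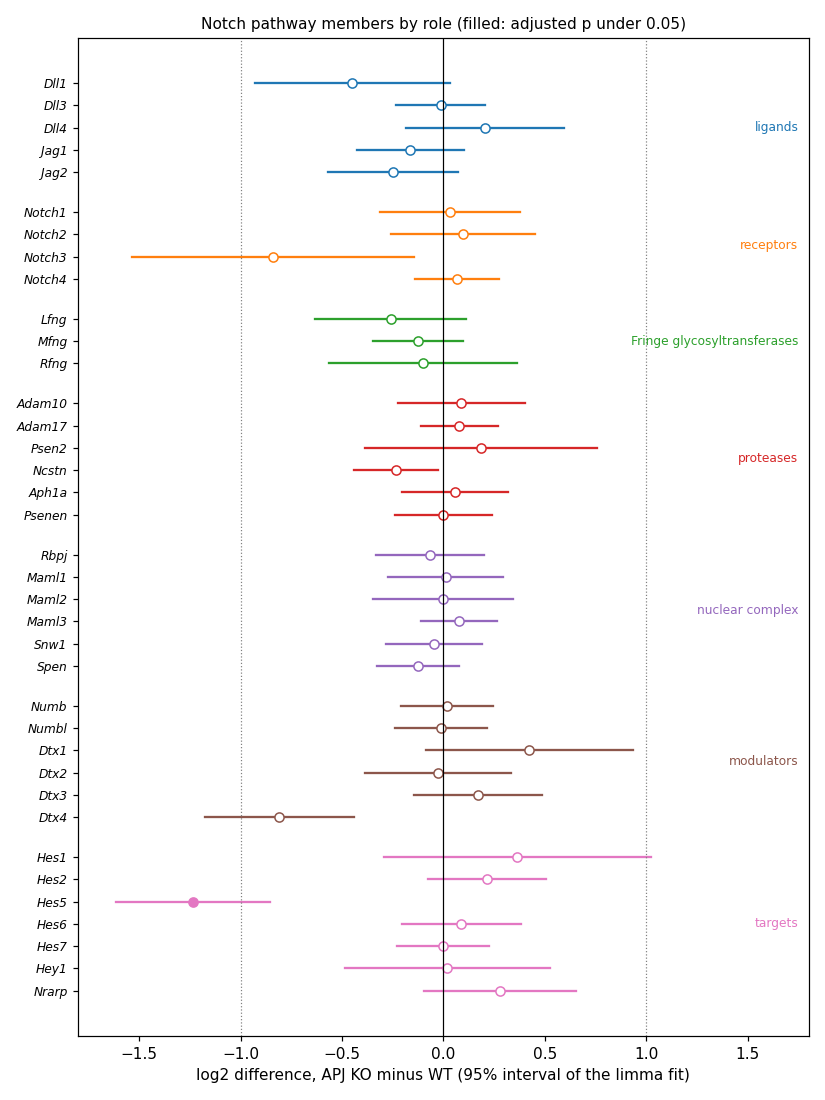
Log2 difference, APJ KO minus WT (x axis), with its 95% interval from limma for the 37 tested members, grouped and coloured by role; dotted lines mark a 2-fold change. Hes5 is the filled point at -1.23, and the intervals of 33 members lie between the dotted lines.

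Across the members, 7 of 37 (18.9%) had APJ KO arrays all on 1 side of the WT arrays, against 12.2% of everything tested. Hes5, Dtx4, Ncstn, Spen and Mfng were lower in this sense, 5 of 37 against 5.86% of everything tested. Adam17 and Maml3 were higher, both by 0.08, 2 of 37 against 6.37%. Compared within same-numbered pairs, 11 of 37 members were higher in APJ KO in all 3 pairs, against 17.1% of everything tested, and 8 were lower in all 3, against 22.3%. The median difference of the members was -0.02 within slide 1 and 0.04 within slide 2. Where 8 members had several probes well above background on every array, all probes of a member lay on the same side of 0.

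**Figure D3:**
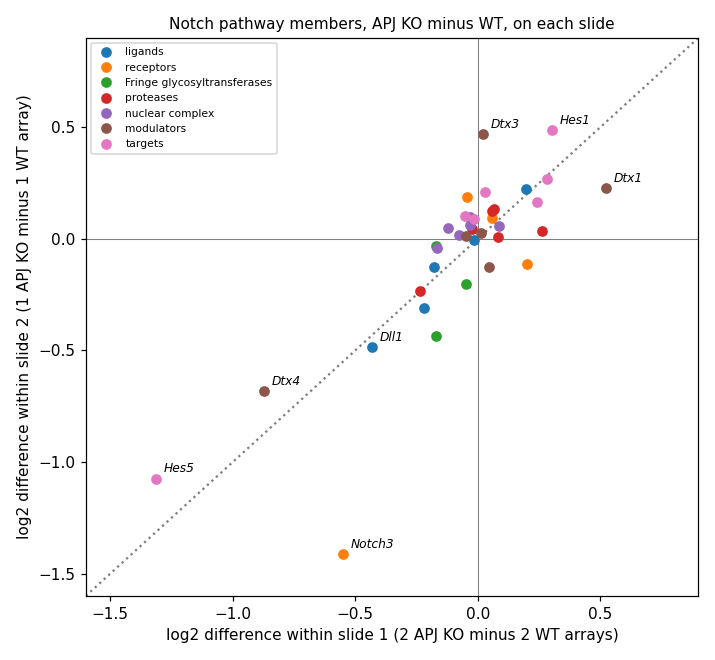
Log2 difference, APJ KO minus WT, of the 37 tested members within slide 1 (x axis, 2 arrays per genotype) and within slide 2 (y axis, 1 array per genotype), coloured by role, with the dotted line of equality. Hes5, at -1.31 and -1.07, and Dtx4, at -0.87 and -0.68, lie low on both slides, while Notch3 lies at -0.55 and -1.41.

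Regulators and cofactors outside the 39 were described from a second list of 51 genes, of which 43 were tested. Limma called 0 of them in either direction (1 at an unadjusted p under 0.05, or 2.33%, against 8.02% over everything tested), and their median difference was 0.0027. Bhlhe40, a repressor of the same helix-loop-helix class that is also induced by hypoxia, read 0.34, 0.67 and 0.04 in APJ KO and -0.27, -0.32 and -0.48 in WT. It did not overlap, but its difference of 0.71 ± 0.17 did not pass (limma adjusted p = 0.206). Tle2, a Groucho co-repressor, differed by 0.40 ± 0.19, Neurl1a, a ubiquitin ligase of the ligands, by 0.20 ± 0.10 and Mfap2, a matrix protein that binds Jagged ligands, by -0.24 ± 0.11.

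Vessel genes that act with Notch formed a list of 29, of which 28 were tested and 6 are also among the 39. This list was chosen with earlier results of these data known, so its shares are a description only. Limma called 0 of 28 in either direction, while 9 (32.1%) had an unadjusted p under 0.05, 7 higher and 2 lower. Over everything tested the share was 8.02% in either direction, with 1078 of 24245 higher and 866 lower. Without overlap between the genotypes were 11 (39.3%), 9 higher and 2 lower, against 12.2% of everything tested, 6.37% higher and 5.86% lower. Ephb4, the venous ephrin receptor, read 4.05, 4.20 and 4.10 in APJ KO and 3.66, 3.70 and 3.58 in WT, and its difference was 0.47 ± 0.09 (limma adjusted p = 0.109). Flt4, the receptor for VEGF-C, differed by 0.38 ± 0.08 and Smad6, an inhibitory Smad, by 0.50 ± 0.13. Sox7, a factor of the SoxF family, read 3.19, 3.13 and 3.06 in APJ KO and 3.62, 3.60 and 3.44 in WT, at -0.42 ± 0.09 (limma adjusted p = 0.166). These 4 genes are among the 11.

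Markers of other cells differed between the samples as follows. All 6 lymphatic endothelial markers, Flt4 among them, were above 0 with a median of 0.54, and their summed signal was 48.9 to 58.3 multiples of the 75th percentile in APJ KO and 36.9 to 38.5 in WT. Without overlap were 5 of the 6, against 12.2% of everything tested. Of the 6, 1, Pdpn, passed when blocked by slide (limma adjusted p = 0.0484), against 1.18% of everything tested. Of 10 keratinocyte markers 7 were tested, all below 0 with a median of -1.05, and their summed signal was 10.72 to 11.47 in APJ KO and 10.8, 16.1 and 32.1 on WT arrays 1 to 3. Of 10 macrophage markers 8 were tested, 7 above 0 with a median of 1.45. Without overlap were 5 of the 8, against 12.2% of everything tested. At an unadjusted limma p under 0.05 were 6, all higher in APJ KO. Over everything tested 8.02% were under it in either direction, with 1078 of 24245 higher. The lysozyme gene Lyz2, the complement genes C1qa and C1qc and the macrophage receptor gene Adgre1 differed by 1.83 ± 0.30, 1.79 ± 0.35, 1.91 ± 0.45 and 2.07 ± 0.71, and each was well above background on 3 APJ KO arrays and on 1 or 2 WT arrays. Limma called 0 of the 8 without a block, Aif1 when blocked by slide (adjusted p = 0.0240) and C1qa when blocked by replicate number (0.0428). The shares of everything tested called in these fits were 0.553%, 1.18% and 0.0206%. The summed macrophage signal was 10.4 to 11.1 in APJ KO and 9.76 to 13.0 in WT. Most of this sum came from Csf1r, at -0.23 ± 0.16, and Mrc1, at 0.06 ± 0.11, so it hardly registers the other markers.

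Neural, Schwann cell and melanocyte markers, which bear on Hes5 because the gene is best known from neural progenitors, had 7 of 12 tested, 3 above 0 and 4 below, with a median of -0.10. Their summed signal was 1.65 to 2.31 in APJ KO and 1.73 to 2.39 in WT, and Fabp7, Erbb3 and Foxd3 were not well above background on any array. Fibroblast markers had 6 of 8 tested at a median of -0.15 (3.18 to 7.61 in APJ KO and 4.11 to 6.19 in WT), and erythroid markers 4 of 6 at 0.26 (67.3 to 105.2 in APJ KO and 53.5 to 85.5 in WT). Of 8 skeletal muscle markers 1, Tnnt3, was tested, at 0.06 (0.0913 to 0.146 in APJ KO and 0.0954 to 0.130 in WT). The part of these cells in the Notch values was not tested. Endothelial markers, with 12 of 12 tested, had a median difference of 0.02 and summed to 956 to 1036 in APJ KO and 921 to 1013 in WT.

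**Figure D4:**
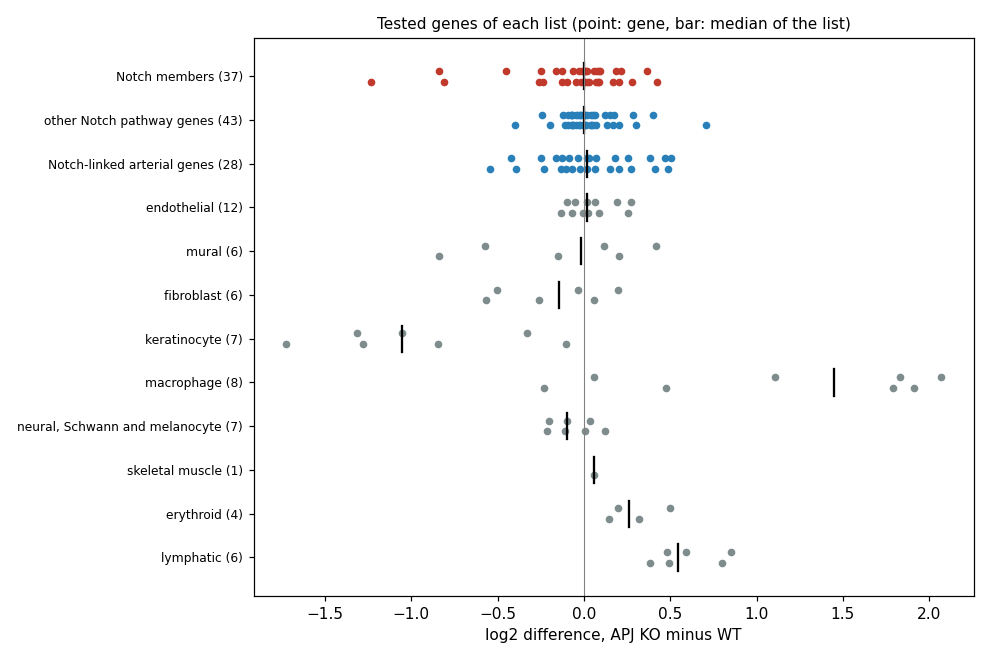
Log2 difference, APJ KO minus WT (x axis), of each tested gene in the Notch members (37), the other Notch pathway genes, the vessel genes that act with Notch and the cell type markers; each point is a gene and each bar the median of its list. The Notch members centre on 0, with Hes5, Notch3 and Dtx4 to the left. The keratinocyte median lies at -1.05, the lymphatic median at 0.54 and the macrophage median at 1.45.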

How the data were processed

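Each deposited scanner file gives spot intensity from a one-colour (Cy3) array, background-subtracted and detrended per the file headers by the scanner software, Agilent Feature Extraction (version 10.7.3.1). In the authors' value table, used as an alternative, these intensities are multiplied by an array constant of unstated origin, on a linear scale and not centred; its column medians are 66.98, 60.30 and 63.25 for APJ KO and 63.46, 62.09 and 65.15 for WT. Control spots and spots marked as outliers (126 to 179 per array) were left out; no spot was saturated. Log2 intensities minus the array's 75th percentile were averaged over the spots of a probe. A probe was tested if well above background on every array of at least 1 genotype, and the probe with the highest mean stood for its gene. Symbols came from RefSeq accessions without version (for 97.7% of the 27016 probes with a curated accession). Summed signals of marker lists weight each gene by its probe level. Beyond these sums and the choice of the highest member of each role, probe levels were not compared between genes.

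The linear model was that of limma 3.58.1 (R 4.3.3; lmFit, eBayes, genotype as the only term), two-sided, with Benjamini-Hochberg adjustment over everything tested and a threshold of 0.05. Same-numbered samples deviated together (correlations of 0.23, 0.15 and 0.65 over 24217 features; on slide 1 both crossed pairs were higher, WT 1 with APJ KO 2 at 0.36 and WT 2 with APJ KO 1 at 0.28), each pair also sharing a slide, and the replicate number was tried as a block. Alternatives changed the background correction, normalization, filter, probe choice, variance model, blocks and arrays used. The members and lists were chosen with earlier results of these data known. Full values are given for members past the threshold with or without a block, for the 12 with the smallest p and for 1 member of each role with the highest mean signal. From the other lists the 4 genes with the smallest p that are no members are named. The number of arrays limits the precision.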

Additional observations from a re-analysis of the deposited data

How the results depend on the processing

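Over everything tested, 134 calls became 286 with the slide as a block, 5 with the replicate number as a block, 210 with array quality weights, 203 with a trended and robust variance, 3 without the filter on dim probes, where 49286 features were tested, and 12 to 61 with 1 array left out. The count of Notch members called was 1 as reported and 2 with the slide as a block (Hes5 and Dtx4). It was 0 with the replicate block, from the authors' deposited table (Hes5 adjusted p = 0.0549), without the filter (0.242) and in all 6 fits with 1 array left out. Hes5 passed under the other 7 alternatives and was below 0 in all 20 values. The vessel gene list had 1 call, Ephb4, with a trended and robust variance, and the other pathway genes had 0 under every alternative. The members' median was 0.035 within slide 2. Normexp used median spot signals, an alternative chosen after seeing the data, as was running the vessel gene list under each alternative. Signals not well above background limit Hey2 and Heyl.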

Other observations

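Neighbours of Hes5 and Dtx4 were looked at after the values of both were seen. Of the 20 nearest tested genes around Hes5 on chromosome 4, 10 on each side in the gene order of the RefSeq table, limma called 0 without a block and 1 when blocked by slide, where 0.553% and 1.18% of everything tested were called, and their differences ran from -0.42 to 0.59. Around Dtx4 on chromosome 19 the count was 0 of 20 in both fits, and the differences ran from -0.29 to 0.81. Notch1, Nrarp, Dll4 and Jag1 share chromosome 2 with Aplnr, and their differences of 0.03, 0.28, 0.21 and -0.16 did not pass.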
